A study of Mus musculus with 40 samples.

Results

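The 10 genes described here mark the capillary endothelium of the heart or serve the transport of lipid, water and bicarbonate across it, and they were measured in hearts of mice with cardiomyocyte expression of *Il11*. They were picked by name as *Lpl*, *Gpihbp1*, *Fabp4*, *Fabp5*, *Aqp1*, *Car4*, *Meox2*, *Tcf15*, *Aplnr* and *Rgcc*, and the list was taken whole. All 10 members were present among the 17646 genes listed for males and the 17223 listed for females, and all 10 passed the filter on low values in both sexes. The CM-Il11-Tg mice carried 1 copy each of α-MHC-MerCreMer (MCM), a tamoxifen-activated Cre recombinase driven by a cardiomyocyte promoter, and of Rosa26-Il11, a Cre-dependent mouse *Il11* transgene. Tamoxifen was injected from 8 weeks of age, and hearts were taken at 1, 3 or 6 weeks after induction. Uninduced CM-Il11-Tg hearts received no tamoxifen. Control hearts, called WT in the labels, carried MCM without the transgene and received tamoxifen, and their interval after tamoxifen was not given. Thus controls and uninduced hearts differed both in the transgene and in tamoxifen, while all mice carried Cre. The transgene was on a C57BL/6N and MCM on a C57BL6/J background.

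Each group held 4 heart libraries per sex (named heart in the labels and ventricle in the text of the study), except 3 male control and 3 male 6-week libraries. One male library was titled control but described as 6 weeks, and 1 had the opposite conflict. Both were left out, and their *Il11* levels were 511 and 0.597 CPM (the read count unit of the authors, scaled to library size), respectively. Between 16663513 and 65333832 reads per male library and between 19147947 and 30929192 per female library fell on listed genes. *Il11* was at most 0.166 CPM in the controls, 15.5 to 49.1 CPM in uninduced hearts and 328 to 819 CPM in induced CM-Il11-Tg hearts. Every assigned library thus matched its label as control, uninduced or induced. The week labels could not be checked this way, since the *Il11* ranges at 1, 3 and 6 weeks overlapped. The 8 cardiomyocyte markers summed to at least 24984 CPM in every library, as the label heart requires.

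In the heart, triglyceride-rich lipoproteins are hydrolysed on the luminal face of the capillary by lipoprotein lipase, which the anchor protein GPIHBP1 carries there from the interstitium. The released fatty acids pass the endothelium with the help of fatty acid binding proteins such as FABP4 and FABP5, under control of the transcription factors MEOX2 and TCF15. The same cells carry the water channel aquaporin 1 and the membrane-bound carbonic anhydrase CAR4. Several of these genes are not confined to capillaries. Cardiomyocytes and adipocytes make *Lpl*, adipocytes and macrophages make *Fabp4*, and macrophages make *Fabp5*.

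The steepest and most regular fall belonged to *Car4*, which dropped after 1, 3 and 6 weeks in both sexes. *Gpihbp1* fell at all 3 times in both sexes, *Aqp1* at all 3 times in females and at 1 and 3 weeks in males, and *Rgcc* in females at all 3 times. *Tcf15* fell at all 3 times in males and at 1 week in females. *Lpl* passed the test at no time in either sex. A gene was called when its adjusted p was under 0.05 in limma fitted across all genes of that sex. In males, 5, 5 and 4 of the 10 genes were called lower at 1, 3 and 6 weeks against 14.6%, 8.1% and 10.9% of all genes tested, and all 10 fold changes were negative at each time. In females, 6, 5 and 5 were called lower against 13.1%, 14.5% and 21.0% of all genes, and 1 was called higher, at 3 weeks, against 16.8%. The median log2 fold change of the 10 genes was -0.52, -0.66 and -0.53 in males and -0.82, -0.42 and -0.58 in females, whereas the median of all genes tested lay between -0.02 and 0.02. Of all genes called at 6 weeks, 59.9% were higher in males and 50.8% in females. With library totals in place of the authors' factors these shares were 85.8% and 88.9% and the median of all genes stood at 0.16 and 0.33, and the log2 fold change of *Car4* minus that median was -2.11 and -2.59. On that scale the male calls of *Gpihbp1* at 1, 3 and 6 weeks (adjusted p = 0.179, 0.067 and 0.22 in limma), of *Aqp1*, *Tcf15* and *Fabp5* at 3 weeks (0.149, 0.112 and 0.208), of *Aplnr* at 1 week (0.236) and of *Fabp4* at 6 weeks (0.231) were lost, as was the female call of *Tcf15* at 1 week (0.083). The female counts were then 4 lower and 2 higher at each time. Of 16956 female genes, 583, 602 and 1045 were called lower on that scale at 1, 3 and 6 weeks and 7001, 7108 and 8356 higher. In males, 6, 9 and 9 of the 10 fold changes were negative. In bulk tissue, fewer cells of a type and less RNA per cell cannot be told apart. The 2 sexes were scaled and tested separately, and differences between the sexes were not tested.

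**Figure D1:**
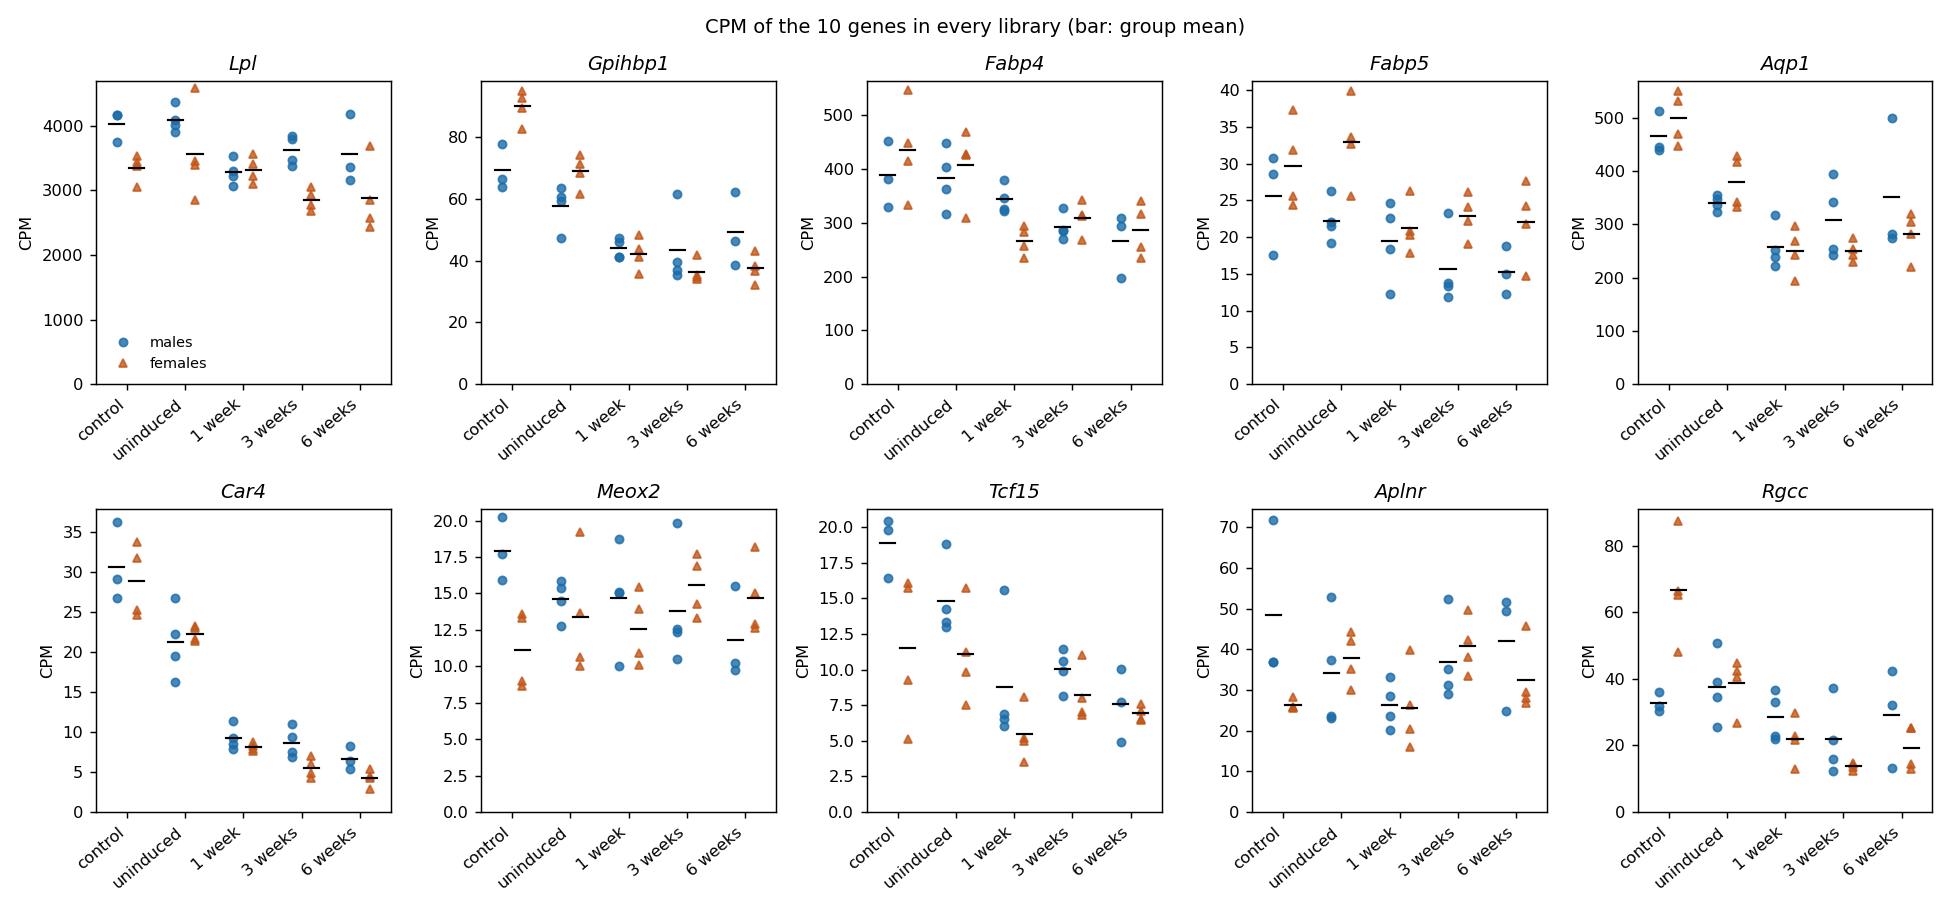
CPM of each of the 10 genes in every library (y axis from 0; blue circles are males, orange triangles females, black bars group means) over the 5 groups. The *Car4* libraries of induced CM-Il11-Tg hearts all lay at or below 11.3 CPM, under every control and uninduced library, whereas the *Lpl* ranges of induced and control hearts overlapped at each time but 1 week in males.

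**Figure D2:**
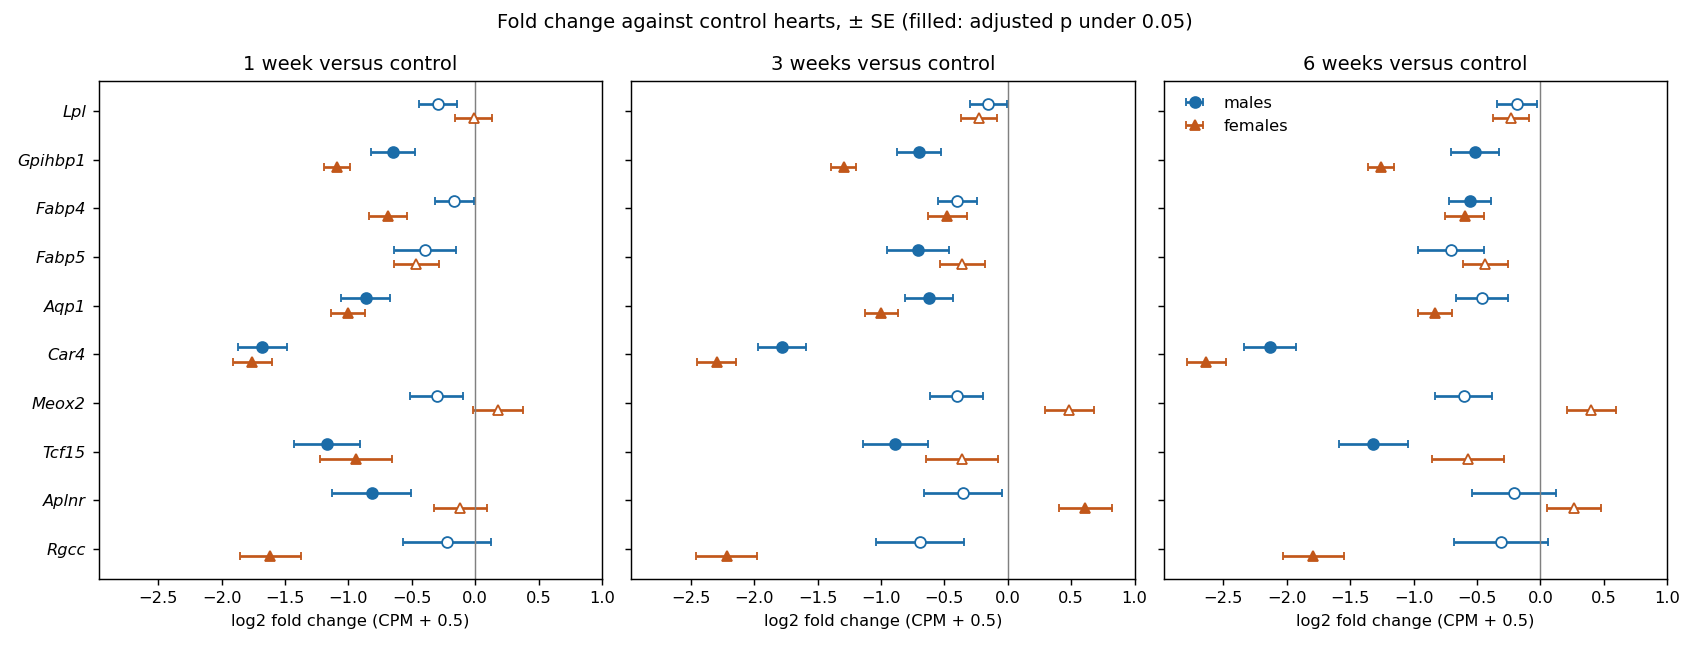
Log2 fold change against control hearts on the log2(CPM + 0.5) scale with its standard error (x axis), for the 10 genes at 1, 3 and 6 weeks, with filled symbols for an adjusted p under 0.05 in limma. *Car4* stands at -1.68 to -2.64, *Rgcc* is filled in females only, and *Lpl* is filled nowhere.

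Promoter sequences were held by RefSeq (GRCm38.p6) for *Aqp1*, *Car4*, *Meox2* and *Rgcc*, that is 4 of the 10 genes. The windows of *Car4*, *Aqp1* and *Rgcc* are printed because these 3 genes fell at every time in females. Each holds 250 bases before and 50 from the annotated start, 5′ to 3′ on the gene's strand, and capitals mark bases that matched a motif. The windows are chr11:84957504-84957803 (plus strand) for *Car4*, chr6:55336049-55336348 (plus strand) for *Aqp1* and chr14:79301586-79301885 (minus strand) for *Rgcc*.
Car4: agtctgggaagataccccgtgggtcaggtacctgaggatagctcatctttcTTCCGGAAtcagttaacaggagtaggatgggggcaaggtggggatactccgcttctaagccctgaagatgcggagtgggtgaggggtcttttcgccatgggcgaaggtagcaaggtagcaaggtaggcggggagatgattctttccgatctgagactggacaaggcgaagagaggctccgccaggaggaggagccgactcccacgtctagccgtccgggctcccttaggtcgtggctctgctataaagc
Aqp1: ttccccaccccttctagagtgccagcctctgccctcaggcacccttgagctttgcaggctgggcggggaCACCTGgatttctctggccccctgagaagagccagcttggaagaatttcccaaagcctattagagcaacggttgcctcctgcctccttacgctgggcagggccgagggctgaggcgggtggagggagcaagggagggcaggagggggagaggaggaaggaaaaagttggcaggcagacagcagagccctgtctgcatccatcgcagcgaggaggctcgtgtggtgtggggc
Rgcc: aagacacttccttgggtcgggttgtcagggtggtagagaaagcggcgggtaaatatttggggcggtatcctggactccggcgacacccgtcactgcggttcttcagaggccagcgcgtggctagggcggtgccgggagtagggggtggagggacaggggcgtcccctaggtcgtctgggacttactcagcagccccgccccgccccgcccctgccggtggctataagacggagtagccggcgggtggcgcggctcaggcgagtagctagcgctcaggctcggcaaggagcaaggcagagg
Both strands were searched for the E-boxes CACCTG and CATCTG, the homeobox motif TAATTA, the ETS motif CCGGAA, the nuclear receptor motif AGGTCA, the STAT motif TTCNNNGAA and the forkhead motif TTGTTT. *Car4* held CCGGAA on both strands, starting at -199 on the minus and -197 on the plus strand with overlapping bases, a motif found in 14.9% of 32851 promoters of this length. *Aqp1* held CACCTG at -181, as did 20.2% of the promoters. None of the 7 motifs matched in the windows of *Rgcc* and *Meox2*. The other motifs were present in 17.2% (CATCTG), 5.29% (TAATTA), 16.3% (AGGTCA), 8.30% (TTCNNNGAA) and 20.7% (TTGTTT) of all promoters. These are matches of letters, not sites shown to be bound.

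*Gpihbp1*, the capillary anchor of lipoprotein lipase (chromosome 15, 75468474 to 75471331, GRCm39), fell in both sexes. In females it read 95.0, 89.6, 82.6 and 92.7 CPM in the control libraries, 43.8, 35.7, 41.1 and 48.2 at 1 week, 35.3, 41.7, 34.04 and 34.7 at 3 weeks and 43.05, 36.6, 38.2 and 32.2 at 6 weeks. Every induced female library was below every control. The log2 fold changes were -1.09 ± 0.10, -1.30 ± 0.10 and -1.26 ± 0.10 (SE, adjusted p = 6.8e-08, 4.5e-09 and 4.88e-09 in limma), and the means at 6 weeks and in controls were 37.5 ± 4.46 and 89.97 ± 5.40 CPM (SD, n = 4 each). In males, controls held 77.9, 63.7 and 66.5 CPM, and the induced libraries 41.3, 46.02, 41.2 and 47.4 at 1 week, 61.5, 39.6, 37.1 and 35.3 at 3 weeks and 38.7, 46.4 and 62.3 at 6 weeks. These groups did not overlap either, but the highest 3-week and 6-week libraries came close to the lowest control. The male changes were -0.65 ± 0.17, -0.70 ± 0.17 and -0.52 ± 0.19 (adjusted p = 0.00723, 0.00577 and 0.0451 in limma). The 6-week male call was lost in 13 of 22 alternatives (adjusted p from 0.00918 to 0.399), and leaving out any 1 of control replicates 1, 3 or 4 or 6-week replicates 1 or 3 raised it to 0.15, 0.067, 0.0751, 0.193 and 0.0929.

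*Lpl*, lipoprotein lipase itself (chromosome 8, 69284603 to 69360100), had by far the most reads of the 10. Male controls held 4164, 4162 and 3748 CPM, the 1-week libraries 3227, 3296, 3068 and 3537, the 3-week libraries 3835, 3381, 3470.1 and 3790.2 and the 6-week libraries 3356, 4186 and 3163. All 4 male 1-week libraries were below the controls, and at 3 and 6 weeks the ranges overlapped. The log2 fold changes were -0.29 ± 0.15, -0.15 ± 0.15 and -0.18 ± 0.16 (adjusted p = 0.132, 0.521 and 0.419 in limma), and DESeq2 on the recovered reads called the first (adjusted p = 0.0113, against 0.794 with library totals as the scale). In females, the controls ranged from 3046 to 3532 CPM and the induced libraries from 3094 to 3561 at 1 week, 2688 to 3051 at 3 weeks and 2431 to 3679 at 6 weeks, with changes of -0.01 ± 0.14, -0.23 ± 0.14 and -0.23 ± 0.14 (adjusted p = 0.966, 0.252 and 0.205 in limma). Without female 6-week replicate 4, the highest library, the 6-week change was -0.36 (adjusted p = 0.0494). With library totals as the scale the female 1-week change was 0.34 (adjusted p = 0.0468 in limma), beside a median of 0.28 over all genes. On the fold scale *Lpl* at 6 weeks stood at -11.9% in males and -14.9% in females, and *Gpihbp1* at -30.1% and -58.1%, and the difference between the 2 genes was not tested.

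*Fabp4*, the abundant fatty acid binding protein of capillary endothelium and adipocytes (chromosome 3, 10268785 to 10273737), read 547, 415, 333 and 449.6 CPM in female controls. At 1 week the female libraries held 294, 234, 282 and 258 CPM, all below the controls. At 3 weeks they held 313, 342, 315 and 269 and at 6 weeks 316, 236, 255 and 340.4, which overlapped with the lowest control. *Fabp4* was called lower at each time, at -0.69 ± 0.15, -0.48 ± 0.15 and -0.60 ± 0.15 on the log2 scale (adjusted p = 0.00167, 0.0207 and 0.00356 in limma). With library totals as the scale, these 3 calls were lost (adjusted p = 0.1, 0.568 and 0.319), and the 3-week call was also lost without control replicate 1 or 4 or without 3-week replicate 4 (adjusted p = 0.0873, 0.0503 and 0.0714). In males, the controls held 383, 331 and 452 CPM, the 1-week libraries 347, 381, 325 and 322, the 3-week libraries 269.9, 329, 287 and 286 and the 6-week libraries 309.6, 294 and 198. The 6-week groups were separate and *Fabp4* was lower there (-0.55 ± 0.16, adjusted p = 0.0163 in limma), while 1 and 3 weeks gave -0.17 ± 0.15 and -0.40 ± 0.15 (adjusted p = 0.428 and 0.0711). The 6-week male call was lost without control replicate 4 (adjusted p = 0.087) or 6-week replicate 4 (0.0877), within a range of 0.00256 to 0.638 over 22 alternatives.

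*Fabp5* (chromosome 3, 10077602 to 10081674), the second binding protein, was present at a lower level. Male controls held 28.6, 17.5 and 30.8 CPM, the 1-week libraries 18.3, 24.7, 22.5 and 12.2, the 3-week libraries 13.8, 23.3, 13.4 and 11.9 and the 6-week libraries 18.7, 14.97 and 12.2. All 3 ranges overlapped with the controls. The male changes were -0.40 ± 0.24, -0.71 ± 0.24 and -0.71 ± 0.26 (adjusted p = 0.224, 0.0446 and 0.0511 in limma), of which the 3-week change was called. That call was lost when any 1 of control replicates 1 and 4 or of 3-week replicates 1, 3 and 4 was left out (adjusted p = 0.157, 0.182, 0.093, 0.0991 and 0.115). In females, means of 29.7 ± 5.99 CPM in controls and 21.3 ± 3.52, 22.9 ± 3.04 and 22.1 ± 5.47 CPM at 1, 3 and 6 weeks (SD, n = 4 each) gave -0.47 ± 0.18, -0.36 ± 0.18 and -0.43 ± 0.18 (adjusted p = 0.0558, 0.134 and 0.0548 in limma), none of them called. The female changes at 1 and 6 weeks each passed the threshold in 5 of 22 alternatives (lowest adjusted p = 0.0309 and 0.0242), and the male 6-week change did in 8 of 22 (lowest adjusted p = 0.0102). *Fabp5* has near copies in the annotation. Of 5 transcripts with at least 90% identity over at least 200 bases, *Gm6166* (98.3% over 409 bases) was listed, at 0.487 to 6.47 CPM. Reads could have been split between them, so the level of *Fabp5* is less certain than the others.

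*Car4* (chromosome 11, 84848020 to 84856879) encodes carbonic anhydrase IV, which is held on the outer membrane of capillary endothelium and interconverts carbon dioxide and bicarbonate. In males it read 29.1, 26.7 and 36.2 CPM in controls, 11.3, 8.53, 7.88 and 9.25 at 1 week, 10.99, 6.82, 7.43 and 9.35 at 3 weeks and 5.34, 6.36 and 8.26 at 6 weeks. In females it read 33.7, 31.8, 24.6 and 25.2 CPM in controls, 7.83, 7.59, 8.70 and 8.28 at 1 week, 6.99, 5.97, 4.23 and 4.88 at 3 weeks and 5.39, 2.92, 4.21 and 4.53 at 6 weeks. No induced library of either sex reached the lowest control of its sex. The log2 fold changes were -1.68 ± 0.19, -1.78 ± 0.19 and -2.13 ± 0.20 in males (adjusted p = 1.86e-06, 9.02e-07 and 1.77e-07 in limma) and -1.76 ± 0.15, -2.29 ± 0.15 and -2.64 ± 0.15 in females (adjusted p = 2.54e-08, 4.17e-10 and 3.85e-11), that is -77.2% in males and -83.9% in females at 6 weeks. Counted from the lowest fold change, *Car4* stood at place 8 of 16931 genes in males and 17 of 16956 in females at 6 weeks. A two-sided exact permutation test gave p = 0.0286 at each time in females and at 1 and 3 weeks in males and p = 0.1 at 6 weeks in males, the smallest these numbers of libraries allow. The male calls at 3 and 6 weeks were lost when the 2 conflicting libraries were placed by their titles (adjusted p = 0.0834 and 0.226), and all 6 calls held in every other alternative. Placement by titles put a library with *Il11* at 511 CPM among the controls and 1 with 0.597 CPM among the 6-week hearts.

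*Aqp1* (chromosome 6, 55313068 to 55325540), the endothelial water channel, fell in females from 532, 551, 446 and 469 CPM in controls to 243, 296, 269 and 194 at 1 week, 274, 229.7, 242 and 254 at 3 weeks and 221, 320.3, 283 and 305 at 6 weeks. The female ranges did not overlap with the controls, and the changes were -1.01 ± 0.13, -0.996 ± 0.13 and -0.83 ± 0.13 (adjusted p = 7.53e-06, 7.22e-06 and 4.69e-05 in limma). Males held 445, 513 and 439 CPM in controls, 318, 238, 222 and 252 at 1 week, 394, 242, 253 and 342 at 3 weeks and 274, 282 and 499 at 6 weeks. The male groups were apart at 1 and 3 weeks, and at 6 weeks 1 library, replicate 4, lay among the controls. The male changes were -0.86 ± 0.19, -0.62 ± 0.19 and -0.46 ± 0.21 (adjusted p = 0.00191, 0.0251 and 0.106 in limma). Without 6-week replicate 4 the last was -0.74 (adjusted p = 0.00479). The 3-week call was lost without control replicate 1 or 3 (adjusted p = 0.0528 and 0.116) or 3-week replicate 2 or 3 (0.0853 and 0.0762).

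*Rgcc* (chromosome 14, 79526185 to 79539085), a regulator of the cell cycle that is abundant in capillary endothelium, gave the second largest fall in females. Control females held 87.4, 66.3, 48.0 and 65.2 CPM, the 1-week libraries 22.9, 13.1, 21.5 and 29.8, the 3-week libraries 14.8, 14.4, 12.2 and 13.4 and the 6-week libraries 14.3, 12.8, 25.1 and 25.1. All induced female libraries were below all controls. The changes were -1.62 ± 0.24, -2.22 ± 0.24 and -1.79 ± 0.24 (adjusted p = 3.26e-05, 4.46e-07 and 5.72e-06 in limma), and the 3-week change was at place 9 from the lowest of 16956 genes. Male controls held 36.0, 30.4 and 31.9 CPM, and the male libraries 33.01, 21.9, 22.9 and 36.8 at 1 week, 37.4, 16.0, 21.7 and 12.3 at 3 weeks and 13.1, 32.2 and 42.5 at 6 weeks. The male ranges overlapped at each time, with induced libraries on either side of the controls. The male changes were -0.22 ± 0.35, -0.69 ± 0.35 and -0.31 ± 0.37 (adjusted p = 0.657, 0.177 and 0.575 in limma), and without 3-week replicate 1 the 3-week change was -0.98 (adjusted p = 0.0426).

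*Tcf15* (chromosome 2, 151985474 to 151991034), the partner of MEOX2 in heart endothelium, read 20.5, 16.5 and 19.8 CPM in male controls. The induced males held 6.90, 6.55, 6.02 and 15.6 CPM at 1 week, 8.14, 9.93, 10.6 and 11.4 at 3 weeks and 10.03, 4.91 and 7.72 at 6 weeks. All of them were below the male controls, although 1-week replicate 4 came close to the lowest of them. The male changes were -1.17 ± 0.26, -0.89 ± 0.26 and -1.32 ± 0.27 (adjusted p = 0.00171, 0.0172 and 0.0013 in limma), all called. The 3-week call was lost without control replicate 1 or 4 or 3-week replicate 1 (adjusted p = 0.0659, 0.0557 and 0.051). In females the controls themselves were spread over 15.7, 16.1, 5.10 and 9.26 CPM. The induced females held 5.23, 8.07, 4.98 and 3.51 CPM at 1 week, 6.81, 11.1, 7.01 and 7.99 at 3 weeks and 6.50, 6.49, 7.09 and 7.61 at 6 weeks, each range overlapping with the controls. The 1-week change of -0.94 ± 0.29 was called (adjusted p = 0.0171 in limma), and those of -0.36 ± 0.29 and -0.57 ± 0.29 were not (adjusted p = 0.364 and 0.112). The female 1-week call was lost without control replicate 1 or 2 or 1-week replicate 4 (adjusted p = 0.0713, 0.0756 and 0.066), whereas without control replicate 3, the lowest, the 3-week and 6-week changes were -0.69 and -0.90 (adjusted p = 0.0468 and 0.00818).

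*Meox2* (chromosome 12, 37158533 to 37229533), a homeobox factor of heart capillaries, was not called against controls in either sex. Male controls held 15.9, 17.7 and 20.2 CPM and the 6-week males 15.5, 10.2 and 9.72, which did not overlap. The male changes were -0.30 ± 0.21, -0.40 ± 0.21 and -0.60 ± 0.22 at 1, 3 and 6 weeks (adjusted p = 0.279, 0.193 and 0.0506 in limma), the last of them past the threshold without 6-week replicate 1 (0.0156). Female controls held 8.96, 8.61, 13.6 and 13.3 CPM and the 6-week females 12.6, 12.9, 15.03 and 18.2, and the female changes were 0.18 ± 0.20, 0.49 ± 0.20 and 0.40 ± 0.20 (adjusted p = 0.53, 0.0641 and 0.103 in limma). The female controls were lower than the male ones, on separately scaled tables. With library totals as the scale, the 3 female changes were 0.51, 0.82 and 0.78 and were called (adjusted p = 0.0495, 0.00311 and 0.00328 in limma). The median of all female genes on that scale was itself 0.28, 0.30 and 0.33.

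*Aplnr* (chromosome 2, 84966569 to 84970267), the receptor for apelin on endothelial cells, varied among libraries. Male controls held 36.8, 36.9 and 71.8 CPM and the 1-week males 23.5, 33.2, 28.5 and 20.2, with a change of -0.82 ± 0.31 that was called (adjusted p = 0.0472 in limma). Its size rested on the third of these controls. Without that library, control replicate 4, the change was -0.50 (adjusted p = 0.268), and the call was also lost without control replicate 3 or 1-week replicate 1, 3 or 4 (0.054, 0.0885, 0.0616 and 0.113). Female controls held 25.7, 25.7, 28.2 and 25.9 CPM, the 1-week libraries 20.5, 39.8, 16.0 and 26.4, the 3-week libraries 49.6, 33.6, 42.3 and 38.2 and the 6-week libraries 26.8, 28.1, 45.7 and 29.5. All 3-week females were above all controls, and *Aplnr* was the only member called higher on the authors' scale (0.61 ± 0.21, adjusted p = 0.0316 in limma). The call was lost without control replicate 1, 2 or 4 or 3-week replicate 1 or 3 (adjusted p = 0.0624, 0.0645, 0.0611, 0.0998 and 0.0715). Male changes of -0.35 ± 0.31 (3 weeks) and -0.21 ± 0.33 (6 weeks) and female changes of -0.12 ± 0.21 (1 week) and 0.26 ± 0.21 (6 weeks) were not called. The female 3-week and 6-week changes on library totals were 0.96 and 0.66 and both were called (adjusted p = 0.00149 and 0.0157 in limma), beside medians of 0.30 and 0.33 over all genes.

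Uninduced hearts, with their low *Il11* level, lay between the controls and the induced hearts for *Car4*, at 16.3, 19.5, 22.3 and 26.7 CPM in males and 23.0, 21.3, 23.2 and 21.6 CPM in females. In females 4 of 4 of these libraries were below all controls, and in males 3 of 4 were. Against controls the change was -0.53 ± 0.19 and -0.35 ± 0.15, which was not called (adjusted p = 0.29 and 0.27 in limma). Female *Rgcc* held 40.6, 26.8, 42.4 and 44.8 CPM, again below all controls, with a change of -0.78 ± 0.24 (adjusted p = 0.0965). Female *Gpihbp1*, at 74.1, 61.7, 71.3 and 68.5 CPM, was the single member called (-0.38 ± 0.10, adjusted p = 0.0441), where 0.466% of all genes were called lower. This call was lost without any 1 of female control replicates 1, 2 or 4 or uninduced replicates 2, 3 or 4 (adjusted p = 0.138, 0.102, 0.115, 0.125, 0.0796 and 0.0528). In males 0 members were called by limma, against 0.597% of all genes, 0 by edgeR and 0 by DESeq2. An unadjusted p under 0.05 in limma was held by 2 members in males and 5 in females, and by 1789 of 16931 and 2605 of 16956 genes. *Aqp1* was below all controls in every uninduced library of both sexes, at 323 to 355 CPM in males and 332 to 428 CPM in females, but was not called (-0.45 ± 0.19 and -0.40 ± 0.13, adjusted p = 0.416 and 0.13). Female *Aplnr* went the other way, at 30.0 to 44.2 CPM against 25.7 to 28.2 CPM in controls, and was not called (0.50, adjusted p = 0.25 in limma). Of the 10 fold changes, 8 were negative in males and 5 in females. How many of all genes had separate uninduced and control groups was not counted. For *Fabp4* the changes were -0.02 ± 0.15 in males and -0.09 ± 0.15 in females (adjusted p = 0.981 and 0.83).

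Set against uninduced hearts instead, which share the genotype of the induced ones, *Car4* was lower, at -1.14 ± 0.18, -1.25 ± 0.18 and -1.60 ± 0.19 in males (adjusted p = 0.000122, 4.61e-05 and 5.47e-06 in limma) and at -1.41 ± 0.15, -1.94 ± 0.15 and -2.28 ± 0.15 in females (adjusted p = 2.68e-06, 2.24e-08 and 1.64e-09). No induced library overlapped with the uninduced ones. In females, 7, 4 and 6 members were called lower at 1, 3 and 6 weeks where 4.26%, 6.15% and 9.08% of all genes were, *Gpihbp1*, *Aqp1*, *Rgcc* and *Car4* at each time. The female changes at 6 weeks were -0.87 ± 0.10 for *Gpihbp1*, -0.43 ± 0.13 for *Aqp1* and -1.02 ± 0.24 for *Rgcc* (adjusted p = 2.14e-06, 0.0231 and 0.00411). In males, 2, 1 and 3 members were called lower where 6.66%, 5.46% and 7.4% of all genes were, with *Tcf15* and *Car4* called at 1 and 6 weeks and *Fabp4* at 6 weeks (-0.53 ± 0.15, adjusted p = 0.0179). Male *Aqp1*, lower than controls at 1 and 3 weeks, differed from uninduced hearts by -0.42 ± 0.18, -0.17 ± 0.18 and -0.01 ± 0.19 (adjusted p = 0.113, 0.583 and 0.975). Induced hearts had received tamoxifen and uninduced hearts had not, so *Il11* induction and tamoxifen cannot be told apart in this comparison. The comparisons with uninduced hearts and with controls share the induced libraries.

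Mice taken at later times after induction were also older, so age and time after induction cannot be told apart. Among the induced times, 1 change was called. Female *Car4* was lower at 6 than at 1 week, with a log2 difference of -0.88 ± 0.15 (adjusted p = 0.00356 in limma), with all 4 libraries at 6 weeks (2.92 to 5.39 CPM) below all 4 at 1 week (7.59 to 8.70 CPM), where 0.142% of all genes were called lower. The male *Car4* difference over the same interval was -0.45 ± 0.19 (adjusted p = 0.264). The other members gave 0 calls between times by limma, where all genes gave 0.0177%, 0.165% and 0.0% in males and 0.218%, 1.03% and 0.0% in females at 3 against 1, 6 against 1 and 6 against 3 weeks, and edgeR and DESeq2 also gave 0 in the 5 tests without a call. In males 3 members had an unadjusted p under 0.05 at 6 against 1 week, as did 2615 of 16931 genes. In females 3 did at 3 against 1 week and 1 at 6 against 3 weeks, as did 1699 and 2572 of 16956 genes.

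The members were then compared with 18 general endothelial markers. The summed level of these markers was 1744 to 1944 CPM in male and 1706 to 1852 CPM in female controls, and 1234 to 1471 and 1199 to 1363 CPM at 1 week, 1413 to 1661 and 1118 to 1358 CPM at 3 weeks and 1241 to 1694 and 1169 to 1555 CPM at 6 weeks. Of the 18, 7, 4 and 5 were called lower in males and 12, 12 and 11 in females at 1, 3 and 6 weeks, each time with 1 called higher, *Ecscr*. On library totals, 1, 0 and 1 of the 18 were called lower in males and 3, 7 and 3 in females, and 2, 1 and 1 and 2, 3 and 3 higher. Their median log2 fold change at 6 weeks was -0.24 in males and -0.45 in females. The mean log2 level of the 18 genes was therefore subtracted from each library, and the fit was repeated. This shifts the fold changes of all genes in a comparison by the same amount. The 18 markers were chosen with earlier results of these data known. *Car4* was still lower, at -1.39 ± 0.19, -1.54 ± 0.19 and -1.87 ± 0.20 in males (adjusted p = 3.43e-06, 8.85e-07 and 1.11e-07 in limma) and at -1.35 ± 0.17, -1.85 ± 0.17 and -2.30 ± 0.17 in females (adjusted p = 1.49e-06, 1.19e-08 and 3.62e-10). In this fit 3.3%, 1.84% and 2.06% of all genes were called lower in males and 1.92%, 2.06% and 5.46% in females.

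**Figure D3:**
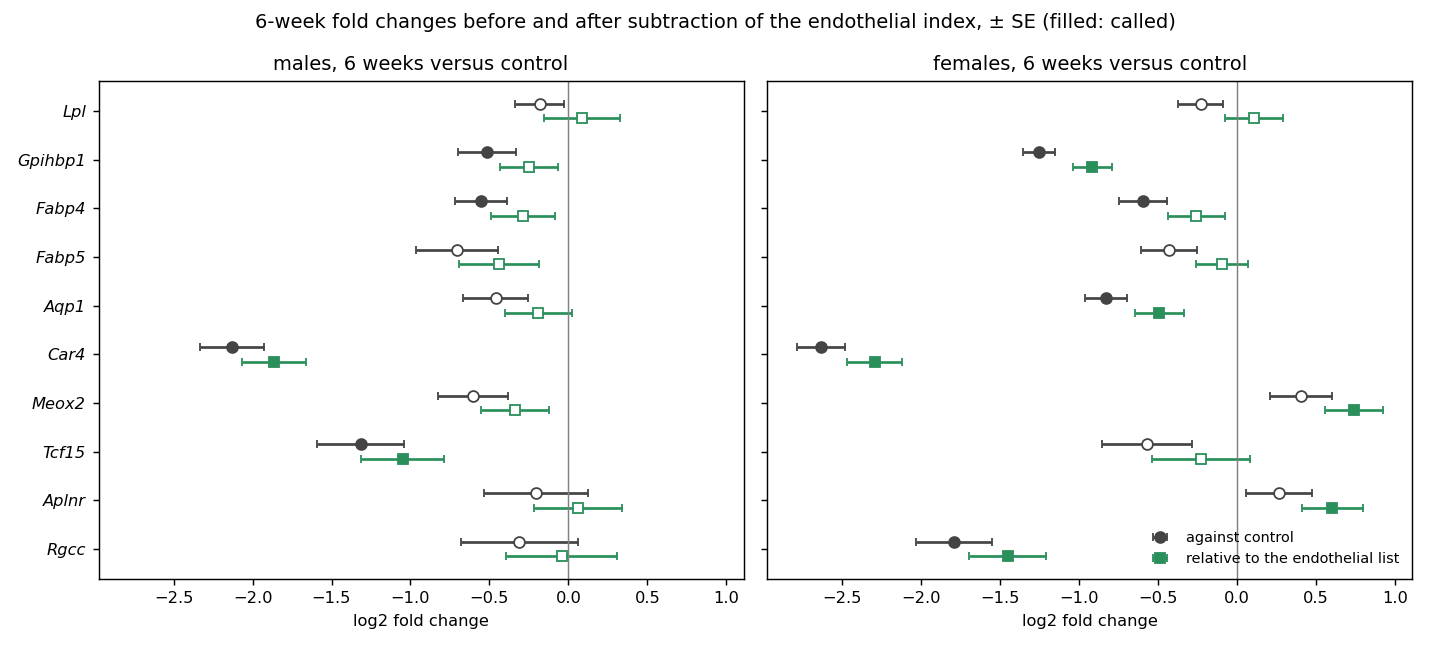
Log2 fold change at 6 weeks against control with its standard error, as measured (grey circles) and after subtraction of the mean log2 level of 18 endothelial markers (green squares), in males and females, with filled symbols for an adjusted p under 0.05 in limma. Each green symbol lies to the right of its grey one, because the subtraction shifts all genes of a sex by the same amount. *Car4* stays below -1.8 in both sexes, and *Fabp4* is filled before and open after subtraction.

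Relative to the endothelial markers, *Gpihbp1* and *Rgcc* were also lower in females at every time, at 6 weeks at -0.92 ± 0.12 and -1.45 ± 0.24 (adjusted p = 2.3e-06 and 4.27e-05 in limma), and so was *Aqp1* (-0.49 ± 0.15, adjusted p = 0.0108, and 0.137 without the libraries numbered replicate 1). *Fabp4* was not called at any time, with -0.29 ± 0.20 in males and -0.26 ± 0.18 in females at 6 weeks (adjusted p = 0.32 and 0.237). In males *Gpihbp1* was not called either, at -0.36 ± 0.17, -0.47 ± 0.17 and -0.25 ± 0.19 (adjusted p = 0.109, 0.0564 and 0.355). *Tcf15* was lower in males at 1 and 6 weeks, at -0.88 ± 0.25 and -1.05 ± 0.26 (adjusted p = 0.00744 and 0.00403), and *Aqp1* at 1 week (-0.58 ± 0.20, adjusted p = 0.0265). Without the libraries numbered replicate 3, both *Tcf15* calls (adjusted p = 0.0586 and 0.0565) and the *Aqp1* call (0.268) were lost, as were the *Tcf15* call at 1 week without replicate 1 (0.0643) and the *Aqp1* call without replicate 2 (0.0507). Female *Meox2* was higher on this scale at all 3 times, by 0.59 ± 0.18, 0.93 ± 0.18 and 0.74 ± 0.18 (adjusted p = 0.0102, 0.000251 and 0.00205), and female *Aplnr* at 3 and 6 weeks, by 1.05 ± 0.19 and 0.60 ± 0.19 (adjusted p = 0.000108 and 0.0122, the latter 0.0829 without replicate 4). Since 50.9%, 56.2% and 45.0% of all genes were called higher on this scale in females, the share of members called higher was below the background.

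Of 15 other listed genes of lipid transport, 6-week males had 2 called lower and 4 higher, and 6-week females had 7 called lower and 4 higher. Of all genes tested at 6 weeks, 16.2% were called higher in males and 21.7% in females, beside the 10.9% and 21.0% called lower. On library totals the counts were 1 lower and 4 higher in males and 2 lower and 6 higher in females. The median log2 fold change was -0.18 and -0.31. *Angptl4*, a secreted inhibitor of lipoprotein lipase, rose from 3.83 ± 1.67 to 25.4 ± 16.0 CPM in males (log2 fold change 2.48 ± 0.45, adjusted p = 0.000344 in limma) and from 7.18 ± 3.17 to 38.1 ± 12.4 CPM in females (2.34 ± 0.39, adjusted p = 7.41e-05). *Slc27a3* rose as well, by 1.81 ± 0.21 in males and 1.60 ± 0.26 in females. The VLDL receptor gene *Vldlr* fell in both sexes (log2 fold change -0.73 ± 0.15 in males and -0.64 ± 0.16 in females, adjusted p = 0.00125 and 0.00389), the female call being lost with library totals (adjusted p = 0.168). *Acsl1*, an acyl-CoA synthetase, fell in males (-0.67 ± 0.16, adjusted p = 0.0514 with library totals), and the fatty acid transporter *Slc27a1* and the nuclear receptor *Pparg* in females (-1.19 ± 0.21 and -0.81 ± 0.15).

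Of 16 other genes of water and acid-base transport, 2 fell and 4 rose in 6-week males, and 5 fell and 4 rose in 6-week females, with medians of 0.02 and -0.20, against the same shares of all genes. The aquaglyceroporin gene *Aqp7* went from 21.5 ± 1.83 to 14.7 ± 1.91 CPM in males and from 19.2 ± 2.30 to 7.74 ± 1.54 CPM in females (log2 fold change -0.54 ± 0.18 and -1.26 ± 0.19, adjusted p = 0.0331 and 2.31e-05 in limma), and the male call was lost with library totals (adjusted p = 0.213). The membrane carbonic anhydrase gene *Car14* fell too (-0.86 ± 0.22 and -1.54 ± 0.23), and in females the anion exchanger gene *Slc4a3* (-1.23 ± 0.15). *Car13*, *Car5b* and *Aqp8* were higher, *Car13* by 1.64 ± 0.22 in males and 2.13 ± 0.17 in females, from a low level of 0.342 ± 0.178 and 0.43 ± 0.067 CPM in controls. Thus members of the carbonic anhydrase family were called in both directions.

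Of 11 other listed endothelial transcription factors and apelin ligands, 3 were called lower in males at 6 weeks and 4 in females, with medians of 0.01 and -0.22. Of all genes, 10.9% and 21.0% were called lower. On library totals the counts were 2 lower and 2 higher in males and 3 lower and 2 higher in females. The medians of the list were then 0.20 and 0.17, beside 0.16 and 0.33 over all genes. *Apln*, the ligand of APLNR, fell from 19.6 ± 2.95 to 4.36 ± 0.39 CPM in males and from 15.5 ± 3.11 to 7.21 ± 2.48 CPM in females (log2 fold change -2.04 ± 0.22 and -1.08 ± 0.24, adjusted p = 1.02e-06 and 0.00111 in limma). *Meox1* and *Erg* fell in males (-0.75 ± 0.27 and -0.71 ± 0.16, *Meox1* with adjusted p = 0.195 with library totals), and *Sox7* and *Gata2* in females (-1.0003 ± 0.24 and -0.91 ± 0.15).

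Markers of other cells moved in the same hearts. Of 7 markers of venous or activated endothelium, 6 were called higher at every time in both sexes. *Selp* (P-selectin) rose from 0.368 ± 0.160 to 14.4 ± 2.05 CPM in males and from 0.221 ± 0.104 to 25.03 ± 6.87 CPM in females at 6 weeks, and *Plvap*, which forms the diaphragms of fenestrated capillaries, from 4.75 ± 1.53 to 60.9 ± 15.2 and from 6.94 ± 1.03 to 72.3 ± 29.5 CPM. The 8 macrophage markers, whose cells can also make *Fabp4* and *Fabp5*, summed to 195 to 325 CPM in male and 169.9 to 217 CPM in female controls, and to 744 to 1094 and 913 to 1046 CPM at 6 weeks, 7 and 8 of them called higher. Of 6 fibroblast markers, 6, 5 and 5 were called higher in males at 1, 3 and 6 weeks and 5 at each time in females, and their sum went from 445 to 568 CPM in male and 548 to 707 CPM in female controls to 1955 to 2228 and 2328 to 3934 CPM at 6 weeks. *Col1a1*, a fibrillar collagen gene, rose from 121 ± 40.9 to 938 ± 131 CPM in males and from 147 ± 24.0 to 1450.0 ± 519 CPM in females. Of 5 lymphatic markers 3 were called higher at each time in both sexes, with *Pdpn* at 3.48 ± 0.21 in males and 3.53 ± 0.28 in females (log2 fold change at 6 weeks). In males, 2, 1 and 1 of these 5 were called lower at 1, 3 and 6 weeks (0 with library totals), and in females 0 were. The marker called lower in males at 6 weeks was *Prox1* (-0.52 ± 0.16, adjusted p = 0.0195 in limma). Of 5 mesothelial markers, 4 were called higher in females at each time and 0 in males. Of 6 arterial markers, 1 was called lower in males and 2 in females at each time (1 and 0 with library totals), and 1 was called higher in males at 1 week and in females at 6 weeks. Of 8 adipocyte markers, *Lipe* and *Cfd* were listed, of which *Lipe* was lower in females at 6 weeks (adjusted p = 0.337 with library totals), and *Adipoq*, *Plin1*, *Cidec*, *Lep*, *Retn* and *Ucp1* were not listed for either sex. Of 6 pericyte markers 2 were called lower in each sex at 6 weeks, and 1 with library totals, where 1 was also called higher in females. The 8 cardiomyocyte markers summed to 47047 to 57106 CPM in male and 30491 to 49929.7 CPM in female controls, and to 27073 to 39359 and 26804 to 36669.6 CPM at 6 weeks. Of these 8, 2 were called lower in males and 5 in females at 6 weeks. With library totals 1 was called lower in each sex, and the median log2 fold changes were -0.18 in males and -0.06 in females. The 7 erythroid markers, 6 of them past the filter in males, reached 15968 CPM in 1 male 6-week library, and 7 of 7 were called higher in females at 1 week. The part of these cells in the fold changes of the members was not tested.

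Among the members themselves, levels per kb of the canonical transcript in controls followed the order *Lpl*, *Fabp4*, *Aqp1*, *Gpihbp1*, *Rgcc*, *Fabp5*, *Car4*, *Tcf15*, *Aplnr* and *Meox2* in both sexes. *Lpl* stood at 978 ± 58.3 CPM per kb in males and 814 ± 51.4 in females, *Fabp4* at 286 ± 44.9 and 321 ± 65.1, and *Meox2* at 7.59 ± 0.916 and 4.70 ± 1.14 (SD, n = 3 and 4). The ranges of neighbours overlapped for *Tcf15* and *Aplnr* in both sexes, and in males also for *Fabp5* and *Car4* and for *Car4* and *Tcf15*. Over the 38 assigned libraries, the genes most like the mean of the 10 were *D630003M21Rik*, *Papln*, *Myo10*, *Colgalt2* and *Heyl* (Pearson r of log2 values 0.923, 0.922, 0.919, 0.917 and 0.914, among 16627 genes). *Car4* was most like *Timp4* (0.924), *Rgcc* most like *Snrk* (0.912), *Gpihbp1* most like *Car4* (0.896), *Fabp5* most like its near copy *Gm6166* (0.863) and *Aplnr* most like *Ttyh2* (0.668). These libraries share the groups, so that any gene that moves with induction scores highly. After the group means were removed, the 45 pairs of members had a median r of -0.04 in males (from -0.74 to 0.71) and -0.01 in females (from -0.76 to 0.55).

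**Figure D4:**
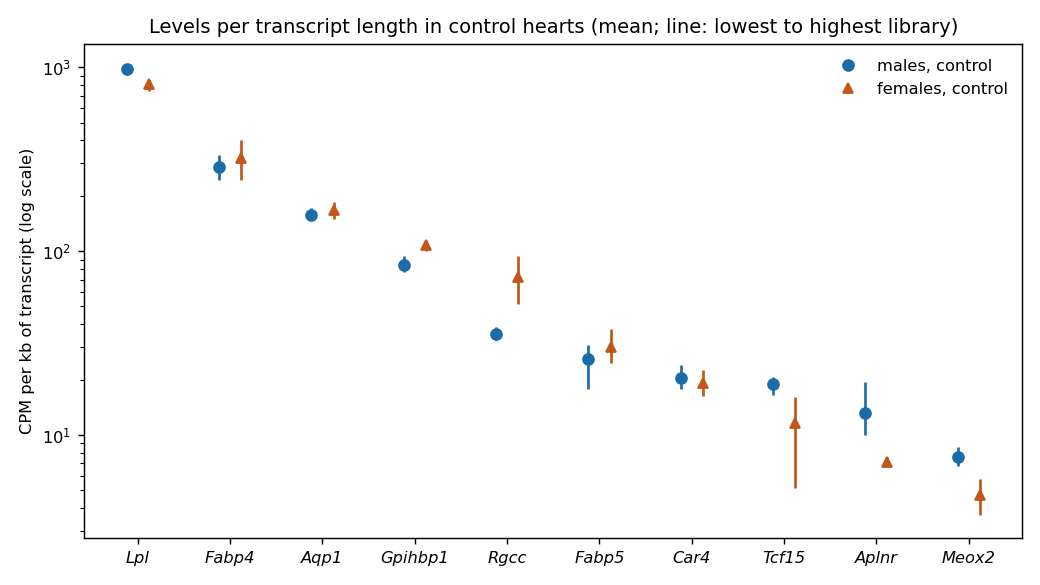
Level of each gene in control hearts in CPM per kb of canonical transcript (y axis, log scale), in males (circles, 3 libraries) and females (triangles, 4 libraries), with the mean as a symbol and the lowest and highest library as the ends of the line. The levels run from 978 and 814 for *Lpl* to 7.59 and 4.70 for *Meox2*.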

How the data were processed

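Heart tissue was profiled by poly(A) RNA-seq. Per the methods of the study, the authors aligned reads to GRCm39 with STAR, counted them per gene with featureCounts and tested them with edgeR. They deposited 1 CPM table per sex, 1 column per library, with genes of few reads removed by a rule that was not stated and a scaling that is not given in the sources used here. These deposited CPM values, taken here as a signal, do not have equal sums over the genes of a library (817395 to 1193422 in males, 848402 to 1196278 in females), because each count was divided by 1 scaled factor per library. With that factor recovered, 100.0% of values were whole reads to a tolerance of 0.001 read. No 2 replicates agreed within sampling noise (lowest mean chi-square per gene 11.9 in males and 6.59 in females).

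Genes with at least 0.5 CPM in at least 3 libraries were kept, 16931 in males and 16956 in females. Log2(CPM + 0.5) was fitted with limma 3.58.1 (trend, robust off) in R 4.3.3 over all groups of 1 sex, with Benjamini-Hochberg adjustment over all genes, and fold changes are on that scale, which understates changes of low genes. The 2 tables were never pooled in a test, since they were scaled separately. Each library was taken as 1 heart. Two-sided exact permutation tests were run per member. Script results were tested on simulated data. edgeR 4.0.16 and DESeq2 1.42.0 were run on the recovered reads as alternatives, beside other pseudocounts, filters and scalings, fits of 2 groups and omission of replicates. Leaving out single libraries was added after the data had been seen. Canonical transcript lengths and positions came from GENCODE vM39 (GRCm39).

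The members and all gene lists were chosen with earlier results of these data known. Named genes are the 10 members, the 3 highest and 3 lowest called genes of each list at 6 weeks, and the genes most alike by Pearson r, with the list genes described in the text taken from these. One gene that this rule names is not reported here. Of the male libraries, 2 with conflicting labels were assigned to no group.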

Additional observations from a re-analysis of the deposited data

Results flagged for a closer look

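Among 80 sets of 4 libraries, 6 held a library far from the other 3 by Dixon's test, where chance gives about 1 in 20. *Tcf15* was 15.6 CPM in male 1-week replicate 4, *Fabp5* 23.3 CPM in male 3-week replicate 2, *Gpihbp1* 61.5 CPM in male 3-week replicate 1 and 41.7 CPM in female 3-week replicate 2, and *Aplnr* 28.2 CPM in female control replicate 3 and 45.7 CPM in female 6-week replicate 3. All 6 were the highest library of their group. The *Aplnr* control stood out because the other 3 lay within 25.7 to 25.9 CPM.

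*Meox2* moved in opposite directions in the 2 sexes at 6 weeks, at -0.60 (log2) for the male and 0.40 for the female hearts. Neither passed the test, and the difference between the sexes was not tested.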

How the results depend on the processing

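The cause of a changed count of members called was not tested. With library totals as the scale, the counts called against control in males were 3, 1 and 2 at 1, 3 and 6 weeks (5, 5 and 4 as reported), all lower, where 646, 395 and 595 of 16931 genes were. In females they were 4 lower and 2 higher at each time (6, 5 and 5 lower and 0, 1 and 0 higher as reported), where 583, 602 and 1045 of 16956 genes were lower and 7001, 7108 and 8356 higher. Against uninduced hearts they were 1 at 1 week in males (2 as reported) and 2 and 3 at 1 and 6 weeks in females (7 and 6). The female uninduced hearts then gave 0 against control, as they did with median-of-ratios scaling, in the fit of 2 groups and with the replicate block, and 2 with DESeq2 (1 as reported). *Lpl* in females at 1 week turned from -0.01 to 0.34 with library totals, where the median of all genes was 0.28. With only the 2 groups compared, males gave 2 at 6 weeks against control, 1 for uninduced hearts and 4 and 4 at 1 and 3 weeks against uninduced hearts (2 and 1 as reported), and females 3 at 6 weeks against uninduced hearts. DESeq2 gave 2 in males at 3 weeks against uninduced hearts. Placement of the 2 conflicting libraries by their titles put *Il11* at 511 CPM among the controls and at 0.597 CPM among the 6-week hearts. Males then gave 2, 0 and 0 against control and 0, 0 and 0 against uninduced hearts. Placed by their descriptions, they gave 4, 5 and 6 against control, with *Fabp5* and *Aqp1* called at 6 weeks (adjusted p = 0.0102 and 0.0392) and *Aplnr* lost at 1 week (0.0585).

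With a log2 fold change of at least 1 required as well, the male counts against control were 2, 1 and 2, all lower, where 331, 199 and 258 of 16931 genes were lower. In females they were 3 and 3 at 3 and 6 weeks (265 and 652 of 16956 genes), and *Car4*, *Rgcc*, *Gpihbp1* and *Aqp1* passed at 1 week (259 genes). Against uninduced hearts they were 1 and 1 (1 and 6 weeks) in males and 1, 2 and 2 in females (85 and 88, and 46, 87 and 118 genes lower). They were 0 for uninduced females and for females at 6 against 1 week (9 and 9 genes lower). Relative to the endothelial markers, males (3, 1 and 2 as reported) gave 1, 0 and 0 by titles, 3 at 3 weeks by descriptions, 3 at 3 weeks with only the 2 groups compared and 1 at 1 week with the fold required, and females (5, 6 and 6) gave 2, 3 and 2 with the fold required.

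Leaving out replicates gave 4 to 5, 2 to 5 and 2 to 5 calls against control at 1, 3 and 6 weeks in males, and 5 to 7, 4 to 8 and 5 to 6 in females. Against uninduced hearts the ranges were 1 to 2, 1 to 3 and 1 to 3 in males and 3 to 8, 4 to 6 and 2 to 7 in females, for uninduced females 0 to 1, and for females 0 to 1 at 3 and at 6 against 1 week. The *Car4* call at 6 against 1 week was lost without the libraries numbered replicate 4, and at 3 against 1 week 1 call was gained without 1-week replicate 2. In males the 3-week count fell to 2 without control replicate 1 and to 3 without control replicate 4 or 3-week replicate 3, and the 6-week count to 2 without control replicate 4. Against uninduced hearts, the female 1-week count fell to 4 without uninduced replicate 1 or 1-week replicate 3, and the 6-week count to 3 without uninduced replicate 1. In males the 1-week count fell to 1 without uninduced replicate 3 or 1-week replicate 1, 2 or 3, and the 3-week count rose to 3 without uninduced replicate 1 or 3-week replicate 1 and to 2 without 3-week replicate 2. Relative to the endothelial markers the ranges were 1 to 3, 1 to 2 and 1 to 2 in males and 5 to 7, 6 to 6 and 5 to 6 in females. Those fits were not run with edgeR, DESeq2 or without single libraries.

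Libraries with the same replicate number did not deviate together, with a mean correlation of 0.013 in males and 0.025 in females. Apart from the uninduced female count of 0, the replicate block kept every count of members within 1.5 times. Every library held at least 16663513 reads, and precision was further limited by groups of 3 or 4 hearts.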

Other observations

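The 2 male libraries with conflicting labels belong to no comparison above. The one titled control and described as 6 weeks, with *Il11* at 511 CPM, held *Car4* at 10.2, *Gpihbp1* at 48.0, *Aqp1* at 344, *Fabp4* at 185, *Fabp5* at 11.4, *Tcf15* at 3.86, *Rgcc* at 35.4, *Meox2* at 12.3, *Aplnr* at 20.8 and *Lpl* at 4003 CPM. The one titled 6 weeks and described as control, with *Il11* at 0.597 CPM, held *Car4* at 27.6, *Gpihbp1* at 63.0, *Aqp1* at 484, *Fabp4* at 344, *Fabp5* at 22.8, *Tcf15* at 25.9, *Rgcc* at 30.2, *Meox2* at 10.3, *Aplnr* at 37.0 and *Lpl* at 3464 CPM.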
